A study of Mus musculus with 8 samples.

Results

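The 4 Id genes (Id1, Id2, Id3 and Id4) and 6 Smad genes (Smad1, Smad4, Smad5, Smad6, Smad7 and Smad9) that carry and record the response to bone morphogenetic proteins (BMPs) were read in 4 RNA libraries of sorted mouse hair follicle stem cells. These 10 genes were chosen by symbol from the 28792 gene symbols of each deposited table, and each of the 10 has 1 row in both tables. Of the 4 Id genes, 3 stood lower by more than 2-fold in bulge cells with Axin2 reporter activity than in those without it (2 when libraries were scaled without mitochondrial features, where Id2 was at -0.99 on the log2 scale), and Smad6, Smad7 and Smad9 lay at or next to the 2-fold line in the same direction. Smad1, Smad4 and Smad5 were close to equal in that pair, where 2.6% of all genes tested were lower by 2-fold or more. No member reached the 2-fold line between cells labelled Ctnnb1 cKO and Het. Few genes did there: 2.29% of all genes tested were lower and 1.8% higher past it.

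BMPs bind serine/threonine kinase receptors, which phosphorylate Smad1, Smad5 and Smad9. These receptor-activated Smads join the common partner Smad4 and enter the nucleus, where they switch on target genes. Among the best known targets are Id1, Id2 and Id3, whose helix-loop-helix proteins lack a DNA-binding region and hold the E proteins away from DNA, and the inhibitory Smads, Smad6 and Smad7, which feed back on the receptors. In the hair follicle, BMP signalling is known for keeping bulge stem cells at rest between growth phases, and the move into growth is accompanied by BMP inhibition and Wnt signalling.

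The series holds 8 samples, of which the 4 RNA libraries are used here, the others being chromatin immunoprecipitation samples not analysed here. One pair came from female mice at postnatal day 99 on a C57BL6/129Sv background. Both of its groups carried K15CrePGR, a Cre recombinase driven by the promoter of the bulge keratin K15, and a Rosa-YFP reporter; the Het cells had 1 floxed and 1 intact copy of Ctnnb1, the gene of β-catenin, and the cKO cells had 2 floxed copies. How or when the Cre was induced is not stated in the labels, which also place this pair in telogen in one field and at the start of anagen in another. The other pair came from male C57BL6 mice at postnatal day 24, as back skin follicles passed from telogen (rest) to anagen (growth). All of these mice were Axin2LacZ/+, with a LacZ reporter at 1 copy of the Wnt target gene Axin2, and their bulge cells were separated by β-galactosidase activity into a LacZ-positive and a LacZ-negative population. Each of the 4 groups is 1 library, so no difference below has a replicate check or a test, and the sources do not state if mice were pooled. The pairs differ in sex, age, strain and genotype and sit in separate tables, so levels are compared only within a pair.

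Values are FPKM (fragments per kilobase and per total of mapped fragments), a level that already allows for transcript length, and the depth behind them is unknown. Differences are log2 ratios of FPKM + 1, positive where the first-named library was higher; a gene was counted as 2-fold higher or lower at 1 or more, or -1 or less. The added 1 FPKM shrinks the differences of low genes. All 10 members passed the minimum of 1 FPKM in either library of each pair. Over the genes that reached 5 FPKM in each library of a pair, the median difference was 0.07 for cKO against Het and -0.17 for LacZ-positive against LacZ-negative cells, with 95% of them between -0.50 and 0.61 and between -0.91 and 0.85. Values given after centring are relative to these 2 medians. Ctnnb1 stood at 370 FPKM in cKO-labelled and 251 in Het-labelled cells, which a gene-level value cannot turn into a check of the deletion and which runs opposite to a loss, so these 2 libraries are named by their labels. Axin2 stood at 2.12 against 16.3 FPKM in that pair and at 19.0 in LacZ-positive against 9.10 in LacZ-negative cells. Ctnnb1 and Axin2 each share an interval with other listed genes, so reads of those genes can enter their values.

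**Figure D1:**
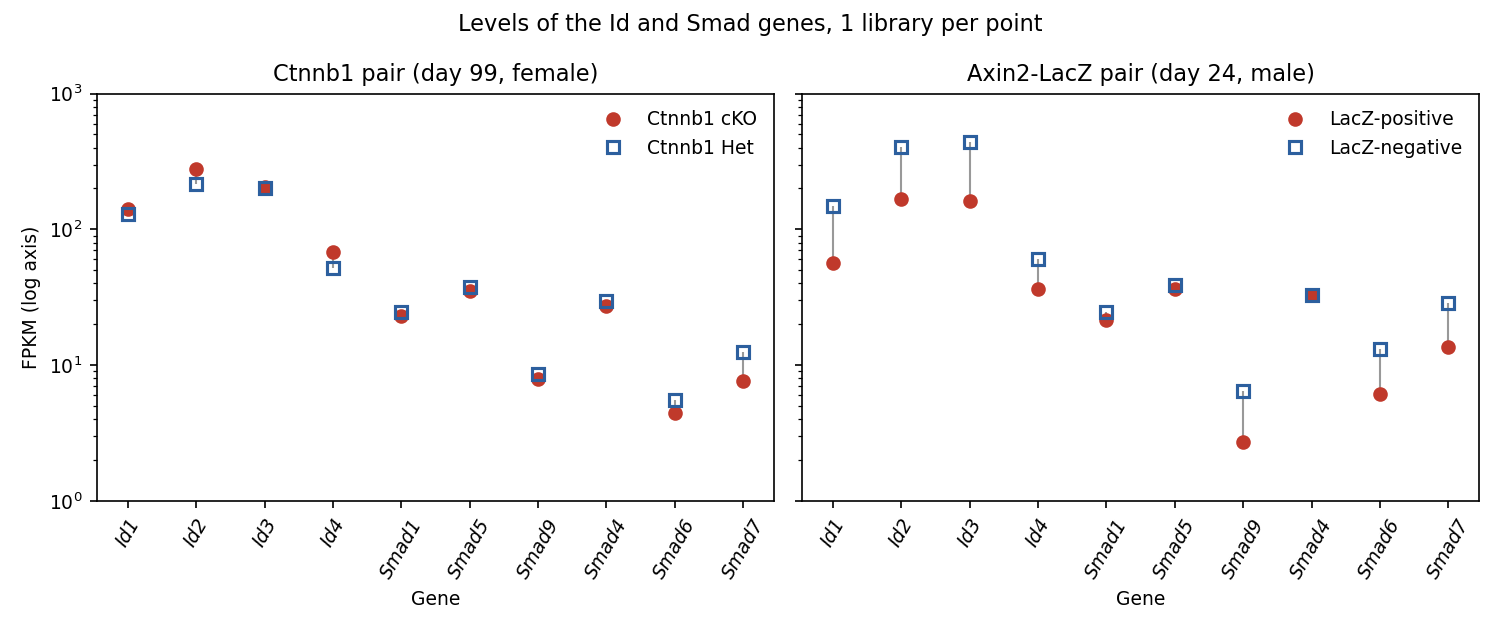
FPKM (log axis) of the 10 members in each library, with filled circles for cKO-labelled and LacZ-positive cells and open squares for Het and LacZ-negative cells; grey lines join the 2 libraries of a pair, and there are no error bars because each point is 1 library. The squares lie well above the circles for Id1, Id2, Id3, Smad6, Smad7 and Smad9 in the right panel, while in the left panel the widest gap is that of Smad7.

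In the LacZ pair Id3, Id1 and Id2 gave the largest differences of the 10 members. Id3 (ENSMUSG00000007872, mm9 chromosome 4, 135699411 to 135701670) stood at 163 FPKM in LacZ-positive against 438 in LacZ-negative cells, 2.68 times as much in the latter, a log2 difference of -1.42. Id1 (ENSMUSG00000042745, mm9 chromosome 2, 152561986 to 152563146) stood at 56.7 and 148 FPKM, a log2 difference of -1.37. Id2 (ENSMUSG00000020644, mm9 chromosome 12, 25778665 to 25780957) stood at 168 and 404 FPKM, a log2 difference of -1.26, which scaling without mitochondrial features moved to -0.99, just inside the 2-fold line. These 3 genes thus differed by similar ratios, between 2.41 and 2.68, although their levels spanned a wide range. Each of them is alone in its interval of the table, so no other listed gene shares its coordinates.

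Id4 differed less. This member, which is known to act in part differently from the other Id proteins, stood at 36.6 FPKM in LacZ-positive against 60.8 in LacZ-negative cells, a log2 difference of -0.72 that stayed inside the 2-fold line. Its interval (ENSMUSG00000021379, mm9 chromosome 13, 48139599 to 48359405) is shared with A330033J07Rik, so reads of that gene can enter its value. Summed over the 4 Id genes, the level was 424 FPKM in LacZ-positive against 1050 in LacZ-negative cells, and Id4 made up 8.62% and 5.79% of it. In bulk libraries such as these, fewer cells that express a gene and less of its RNA per cell cannot be told apart.

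Promoter sequence was available for 7 of the 10 members in the RefSeq table for GRCm38.p6, and Id1, Smad4 and Smad7 have no entry there. The 250 bases before the start site are shown for Id2 and Id3, the called Id genes with an entry, because the members of this family differed together in the LacZ pair. The capitals mark matches, on either strand, to GGCGCC (the GC-rich element known from BMP-responsive Id1 regulation), CAGAC (a Smad binding element), CAGCTG (an E-box, the kind of site bound by E proteins) or the TCF/LEF motifs CTTTGAT and CTTTGAA. The Id2 window lies at chr12:25096093-25096342 on the minus strand and the Id3 window at chr4:136143572-136143821 on the plus strand, both in GRCm38.p6.
Id2: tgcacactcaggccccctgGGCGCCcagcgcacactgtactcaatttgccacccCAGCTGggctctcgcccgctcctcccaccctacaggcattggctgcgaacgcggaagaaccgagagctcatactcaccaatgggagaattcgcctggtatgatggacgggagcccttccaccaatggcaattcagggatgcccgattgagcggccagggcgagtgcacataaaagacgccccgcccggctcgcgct
Id3: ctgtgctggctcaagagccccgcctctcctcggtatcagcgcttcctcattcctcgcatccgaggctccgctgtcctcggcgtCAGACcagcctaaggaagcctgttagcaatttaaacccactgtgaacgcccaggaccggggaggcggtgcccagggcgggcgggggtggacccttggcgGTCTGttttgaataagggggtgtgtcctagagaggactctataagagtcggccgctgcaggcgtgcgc

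The Id2 window held GGCGCC starting 231 bases and CAGCTG starting 196 bases before the start site. The Id3 window held CAGAC starting 167 bases before the start site and its reverse complement GTCTG starting 68 bases before it, and no GGCGCC. Of the 32851 windows in the table, GGCGCC was in 9.59%, CAGAC in 42.2% and CAGCTG in 13.0%, so CAGAC in particular is common. The TCF/LEF motifs, in 3.21% (CTTTGAT) and 4.46% (CTTTGAA) of all windows, were in none of the 9 member windows. The member windows were 60.0% to 75.6% G and C, against a median of 52.4% over all windows, which bears on how often a GC-rich motif is met. No match here is a shown binding site.

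Between cKO-labelled and Het-labelled cells the Id genes were all slightly higher in cKO-labelled cells. Id2 stood at 276 FPKM in cKO-labelled and 216 in Het-labelled cells, a log2 difference of 0.35, and Id4 at 68.4 and 51.9 FPKM, a log2 difference of 0.39. Id1 stood at 142 and 129 FPKM (0.13 on the log2 scale). Id3 stood at 205 and 200 FPKM, a difference of 0.03 that turned to -0.03 after centring. The Id sum was 691 FPKM in cKO-labelled and 597 in Het-labelled cells, and the median of the 4 differences was 0.24, beside 0.06 over all 13014 genes tested. All 4 lay within the central 95% of genes at 5 FPKM or more.

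The order of levels among the Id genes was nearly the same in all libraries. Id2 was highest, followed by Id3, Id1 and Id4, in cKO-labelled, Het-labelled and LacZ-positive cells, and Id3 passed Id2 in LacZ-negative cells. Id2 and Id3 were close together in 3 of the libraries, with Id3 at 0.928 times Id2 in Het-labelled, 0.974 in LacZ-positive against 1.08 in LacZ-negative cells, against 0.744 in cKO-labelled cells. With 1 library per group it cannot be said which of these neighbours differ beyond their spread. Id2 stood at 1.95 and 1.67 times the level of Id1 in cKO-labelled and Het-labelled cells, and at 2.95 and 2.72 times in LacZ-positive and LacZ-negative cells.

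The inhibitory Smads were lower in the first-named library of both pairs. Smad7, which blocks BMP and TGF-β receptors (ENSMUSG00000025880), stood at 13.7 FPKM in LacZ-positive against 28.5 in LacZ-negative cells, a log2 difference of -1.01. Smad6, which acts mainly on the BMP branch (ENSMUSG00000036867, mm9 chromosome 9, 63800952 to 63869866), stood at 6.17 and 13.1 FPKM. Its log2 difference of -0.98 fell just short of the 2-fold line through the added 1 FPKM, while the FPKM themselves differed 2.13-fold. Together Smad6 and Smad7 summed to 19.9 FPKM in LacZ-positive against 41.6 in LacZ-negative cells.

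Between cKO-labelled and Het-labelled cells Smad7 had the largest difference of the 10 members, at 7.67 FPKM in cKO-labelled and 12.5 in Het-labelled cells, a log2 difference of -0.64. That lies below the central 95% of genes at 5 FPKM or more but inside the 2-fold line. Smad6 stood at 4.43 and 5.52 FPKM, a log2 difference of -0.26. The Id genes, also BMP targets, were on the other side of 0 in this pair as reported. After centring Id2 and Id4 stayed there, at 0.28 and 0.32, while Id1 lay at 0.06 and Id3 at -0.03. The target genes among the members thus did not all share a direction, and Id1 and Id3 were close to equal. The authors' deposited table gives a log2 fold change of -0.70 for Smad7 and -0.32 for Smad6, computed without an added constant.

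The receptor-activated Smads behaved unequally in the LacZ pair. Smad9 (also called Smad8; ENSMUSG00000027796, mm9 chromosome 3, 54559503 to 54605179), the least abundant of the 3, stood at 2.71 FPKM in LacZ-positive against 6.44 in LacZ-negative cells, a 2.37-fold difference in FPKM whose log2 value sits on the 2-fold line. Smad5 (ENSMUSG00000021540, mm9 chromosome 13, 56804370 to 56843738), the most abundant, stood at 36.2 and 39.0 FPKM, and Smad1 (ENSMUSG00000031681, mm9 chromosome 8, 81862293 to 81923417) at 21.7 and 24.8 FPKM, log2 differences of -0.10 and -0.18. After centring these became 0.07 and -0.01, and with scaling to the FPKM sum without mitochondrial features 0.16 and 0.08, so the sign for both genes depends on the scaling. Smad9 moved inside the 2-fold line, to -0.83 after centring and to -0.79 with the scaling without mitochondrial features. Smad9 made up 4.47% of the summed FPKM of the 3 genes in LacZ-positive against 9.17% in LacZ-negative cells, and Smad5 59.7% and 55.5%. The summed level of the 3 genes, mostly Smad5 and Smad1, was 60.7 and 70.2 FPKM.

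The 250 bases before the start of Smad9 are shown because this was the only receptor-activated Smad that reached the 2-fold line as reported. They lie at chr3:54755332-54755581 on the plus strand of GRCm38.p6, and the capitals mark GGCGCC, which starts 51 bases before the start site.
Smad9: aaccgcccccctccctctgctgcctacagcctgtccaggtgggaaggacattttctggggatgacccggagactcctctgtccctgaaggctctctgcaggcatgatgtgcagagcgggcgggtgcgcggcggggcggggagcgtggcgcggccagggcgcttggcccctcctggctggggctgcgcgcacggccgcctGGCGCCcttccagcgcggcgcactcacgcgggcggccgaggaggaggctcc

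GGCGCC was also in the windows of Id4 (148 bases before the start) and of 1 of the 3 start sites of Smad5 (19 bases before it), neither of which reached the 2-fold line. Another Smad5 window held CAGAC 21 bases before the start. The windows of Smad6 and Smad1 held none of the 5 motifs. Windows with GGCGCC thus belong to members on both sides of the 2-fold line.

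In the Ctnnb1 pair the receptor-activated Smads were nearly equal. Smad5 stood at 35.0 FPKM in cKO-labelled and 37.8 in Het-labelled cells, Smad1 at 23.0 and 24.8, and Smad9 at 7.93 and 8.69, with log2 differences of -0.11, -0.11 and -0.12. Smad4, the common partner of BMP and TGF-β Smads, stood at 27.5 and 29.5 FPKM in this pair (-0.10 on the log2 scale). In the LacZ pair Smad4 stood at 32.6 FPKM in both libraries, a log2 difference of 0.00, or 0.17 after centring. The order Smad5, Smad4, Smad1 held from the top in cKO-labelled, Het-labelled and LacZ-positive cells, while Smad7 passed Smad1 in LacZ-negative cells.

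Set against all genes, 5 of the 10 members (Id1, Id2, Id3, Smad7 and Smad9) stood 2-fold or more below their LacZ-negative level in LacZ-positive cells, where 2.60% of the 13283 genes tested were. None of the 10 was higher by 2-fold or more, where 4.67% of all genes were. Among the 11019 genes above 0 in both libraries and without small RNA, clone, Gm or Rik names, 1.75% were lower by 2-fold or more. After centring, 3 members (Id1, Id2 and Id3) remained past the line, beside 1.69% of all genes, and Smad7 and Smad9 moved to -0.84 and -0.83. The median of the 10 differences was -0.99, beside -0.13 over all genes tested. Between cKO-labelled and Het-labelled cells 0 of the 10 members were lower and 0 were higher by 2-fold or more, where 2.29% and 1.80% of all genes were, and the median of the 10 was -0.10.

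**Figure D2:**
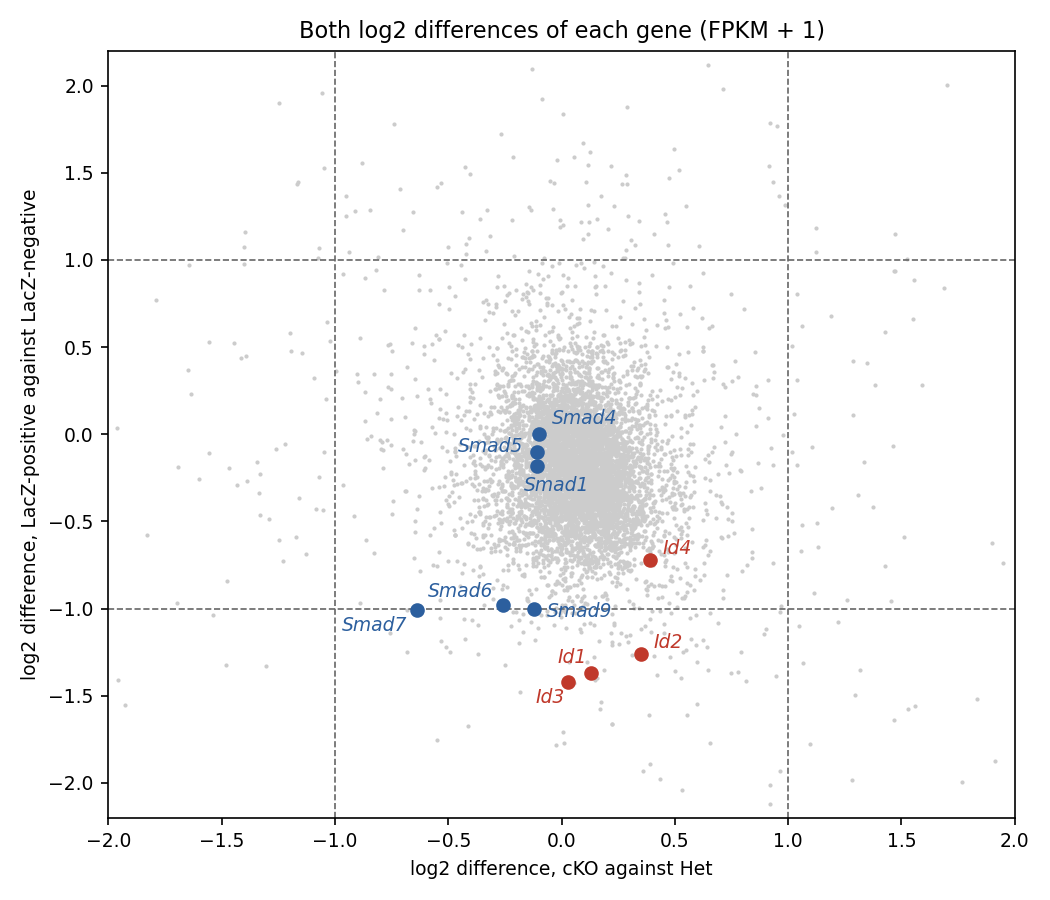
The log2 difference of cKO against Het (horizontal) and of LacZ-positive against LacZ-negative cells (vertical), with Id genes in red, Smad genes in blue and, in grey, all genes at 10 FPKM or more in at least 1 library of each pair and above 0 in all 4; dashed lines mark 2-fold, and genes beyond the axes are not drawn. Id1, Id2 and Id3 lie together at the lower edge of the cloud, Smad6, Smad7 and Smad9 along the lower dashed line, and Smad1, Smad4 and Smad5 inside the cloud.

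Genes placed most like Id1, Id2 and Id3 were found by the distance from the mean of the 3 genes (0.17 for cKO against Het and -1.35 for LacZ-positive against LacZ-negative cells) over these 2 differences. Id1, Id2 and Id3 themselves lay 0.05, 0.20 and 0.15 from that mean. Of 6295 candidate genes, the 5 nearest were Mmp11, a matrix metalloproteinase (distance 0.053), Tbx1, a transcription factor of the bulge (0.074), Pnp, a purine nucleoside phosphorylase (0.077), Ltbp2, a matrix protein of the latent TGF-β binding family (0.14), and Cd34, the surface marker of bulge cells (0.15). Tbx1 stood at 122 FPKM in LacZ-positive against 303 in LacZ-negative cells, and at 188 and 174 in cKO-labelled and Het-labelled cells. Cd34 stood at 223 and 516 FPKM in the LacZ pair and at 752 and 645 in the Ctnnb1 pair. Cd34, Mmp11 and Ltbp2 share an interval with other genes. The likeness rests on 2 differences only.

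Other genes known to respond to BMPs were taken from a list of transcription factor genes. In the LacZ pair 10 of its 11 genes were tested, and 6 were lower and 0 higher past the 2-fold line. Of all genes tested, 2.60% were lower and 4.67% higher past it. The median of the list was -1.17, beside -0.13 over all genes tested. Dlx3, a homeobox gene of hair differentiation, stood at 6.88 FPKM in LacZ-positive against 29.9 in LacZ-negative cells (-1.97 on the log2 scale). Its relative Dlx2 stood at 5.07 and 14.3, Msx1 at 3.38 and 10.6, Msx2 at 2.26 and 7.69, and Hey1, a repressor also driven by Notch, at 1.24 and 4.72 FPKM. Atoh8 stood at 10.7 and 22.6 FPKM, a log2 difference of -1.01 that became -0.84 after centring. Not all genes of the list took part: the most abundant, Nfatc1, a bulge regulator that BMP signalling is known to sustain, stood at 58.2 and 54.7, and Gata3 at 51.7 and 43.5 FPKM. Between cKO-labelled and Het-labelled cells 8 genes of the list were tested and none passed the line, nor did 12482 of all 13014 genes. In cKO-labelled cells 7 were lower, beside 5090 of all 13014 genes tested. The median of the list was -0.45, beside 0.06 over all genes tested. Nfatc1 stood there at 42.8 FPKM in cKO-labelled and 62.0 in Het-labelled cells. Several of these genes were already known to differ in the LacZ pair when the list was made, so their count does not stand as separate support.

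Upstream of the Smads, the BMP ligands were few and low apart from Gdf10. In the LacZ pair 6 of 12 ligand genes were tested, none passed the 2-fold line and the median was 0.12. Of all 13283 genes tested in that pair, 12317 did not pass it either. Gdf10, a divergent member of the BMP family and the most abundant ligand there, stood at 85.9 FPKM in LacZ-positive against 154 in LacZ-negative cells. Bmp7 stood at 9.98 and 6.35 FPKM and Bmp4 at 4.26 and 2.08, both higher in LacZ-positive cells. In the Ctnnb1 pair 5 ligands were tested and all 5 were lower in cKO-labelled cells, beside 5090 of all 13014 genes tested. Only 1 of them was past the line, beside 2.29% of all genes. This was Gdf10, at 5.56 FPKM in cKO-labelled and 17.3 in Het-labelled cells, a log2 difference of -1.48. Bmp4 and Bmp6 were near the minimum of 1 FPKM, at 0.872 and 0.969 in cKO-labelled against 1.03 and 1.55 in Het-labelled cells.

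Receptor genes did not pass the 2-fold line in either pair. Most genes stayed inside it too: 12482 of all 13014 tested in the Ctnnb1 pair and 12317 of 13283 in the LacZ pair. Of 11 receptor and co-receptor genes, 10 were tested in the Ctnnb1 pair (median -0.06) and 9 in the LacZ pair (median 0.09). Bmpr1a, the type I receptor needed for hair differentiation and the most abundant of the list, stood at 39.7 and 36.7 FPKM in cKO-labelled and Het-labelled cells and at 39.2 and 36.9 in LacZ-positive and LacZ-negative cells. Bmpr2, the type II partner, stood at 10.4 and 6.19 FPKM in the LacZ pair, a log2 difference of 0.67.

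Antagonist genes hold BMP ligands or receptors in check. Of 9 tested in the LacZ pair, 7 were lower in LacZ-positive cells (6 after centring), beside 8423 of all 13283 genes tested. Only 1 of them passed the 2-fold line, beside 2.6% of all genes, and the median was -0.53. Nog, which encodes the ligand trap Noggin, stood at 5.70 FPKM in LacZ-positive against 25.4 in LacZ-negative cells, a log2 difference of -1.98. Nbl1 stood at 71.9 and 141 FPKM, Grem1 at 68.4 and 132, and Sostdc1, the most abundant antagonist in this pair, at 414 and 629. In the Ctnnb1 pair 7 of 9 were higher in cKO-labelled cells, beside 7924 of all 13014 genes tested, with a median of 0.40. The other 2 were lower: Sostdc1 stood at 120 against 219 FPKM in Het-labelled cells (-0.86 on the log2 scale) and Fst at 56.5 against 95.9 (-0.75). Fstl1 passed the line there, where 1.8% of all genes were higher past it. It stood at 39.0 FPKM in cKO-labelled and 18.7 in Het-labelled cells, a log2 difference of 1.02 that became 0.95 after centring. The most abundant, Grem1, stood at 326 FPKM in cKO-labelled and 240 in Het-labelled cells.

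**Figure D3:**
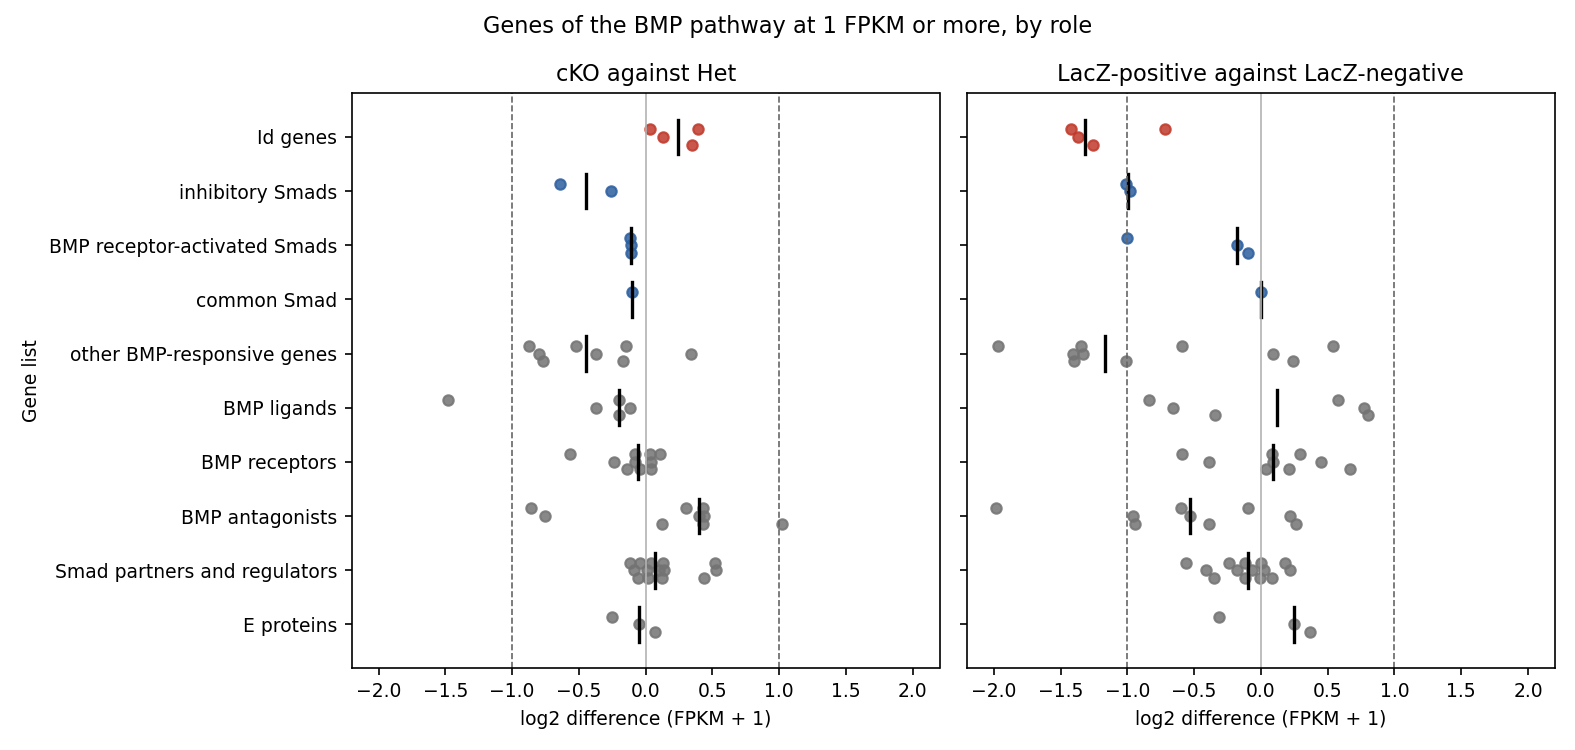
Each point is the log2 difference (FPKM + 1) of 1 gene at 1 FPKM or more in either library, by role in the BMP pathway; black bars are medians of a list and dashed lines mark 2-fold. In the right panel the medians of the Id genes (-1.32) and of the other BMP-responsive genes (-1.17) lie left of the lower 2-fold line, as do 3 of 4 and 6 of 10 of their genes, while receptors (median 0.09) and Smad partners (median -0.10) centre near 0. Of all genes tested in the LacZ pair, 2.6% were lower past the line. Several of the other BMP-responsive genes were already known to differ in this pair when their list was made, so they are not separate support.

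Partners of the members lay within 2-fold, as did most genes. Within it were 12482 of all 13014 genes tested in the Ctnnb1 pair and 12317 of 13283 in the LacZ pair. Of 16 Smad partners and regulators, 14 were tested in each pair and all lay within 2-fold, with medians of 0.07 and -0.10. These include the TGF-β Smads: Smad2 stood at 17.3 FPKM in LacZ-positive against 18.8 in LacZ-negative cells, and Smad3 at 3.56 and 2.92. Tob1, an antiproliferative protein that binds Smads and the most abundant of the list in cKO-labelled cells, stood at 74.9 FPKM in cKO-labelled and 51.5 in Het-labelled cells. Tgif1, a Smad corepressor and the most abundant in the LacZ pair, stood at 54.6 and 59.4 FPKM in LacZ-positive and LacZ-negative cells. The E proteins, the helix-loop-helix partners that Id proteins bind, also stayed within 2-fold in both pairs. Tcf12 (HEB), the most abundant, stood at 64.2 and 54.0 FPKM in the LacZ pair, Tcf3 (E2A, ENSMUSG00000020167, not the Wnt factor Tcf7l1) at 38.9 and 48.3, and Tcf4 (E2-2) at 14.3 and 10.9. Relative to the 4 Id genes, the summed E protein level was 117 FPKM beside an Id sum of 424 in LacZ-positive cells, and 113 beside 1050 in LacZ-negative cells.

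Cell cycle genes and suprabasal markers moved with the LacZ sort. Of 15 cell cycle genes tested, 14 were higher past the 2-fold line in LacZ-positive cells (median 2.14), beside 4.67% of all genes. In cKO-labelled cells 9 of 14 tested were lower by 2-fold or more (median -1.24), beside 2.29% of all genes. Mki67, a marker of dividing cells, stood at 13.6 FPKM in LacZ-positive against 2.19 in LacZ-negative cells and at 0.534 in cKO-labelled and 3.73 in Het-labelled cells; Pcna, the most abundant of the list, stayed within 2-fold in both pairs. All 5 genes listed as suprabasal markers (Krt1, Krt10, Lor, Ivl and Krt79) were higher in LacZ-positive cells, beside 4860 of all 13283 genes tested. By 2-fold or more 3 of them (Krt1, Krt10 and Krt79) were higher, beside the same 4.67% of all genes. The 5 markers summed to 2337 against 946 FPKM, with Krt10, the most abundant, at 1491 and 633. In the other pair these markers summed to 655 and 629 FPKM. Of 9 bulge markers in the LacZ pair, 4 were higher (Krt15 among them) and 5 lower, and 7 lay within 2-fold. Cd34 was lower by 2-fold or more, beside 2.6% of all genes. Krt15 is listed at 0 in LacZ-negative and at 5951 FPKM in LacZ-positive cells, where an exact 0 can be a failed estimate. The part of dividing and suprabasal cells in the lower Id and Smad levels of LacZ-positive cells was not tested.

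Markers of cells from outside the epithelium were low. Fibroblast markers summed to 8.74 FPKM in LacZ-positive against 17.7 in LacZ-negative cells, and to 23.0 in cKO-labelled and 14.7 in Het-labelled cells, where Col1a1 stood at 10.3 and 3.72. Leukocyte markers summed to at most 8.39 FPKM, dermal papilla markers to at most 4.14 (Sox2 is listed at 0 in all 4 libraries), and endothelial and muscle and blood markers to less than 1 FPKM in each library. Melanocyte markers summed to 17.9 and 13.4 FPKM in the LacZ pair, mostly Dct, and to 1.42 and 2.43 in the Ctnnb1 pair. Every Id gene stood at 36.6 FPKM or more in every library. How much of the Id RNA came from such cells was not tested, and marker sums do not give it.

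**Figure D4:**
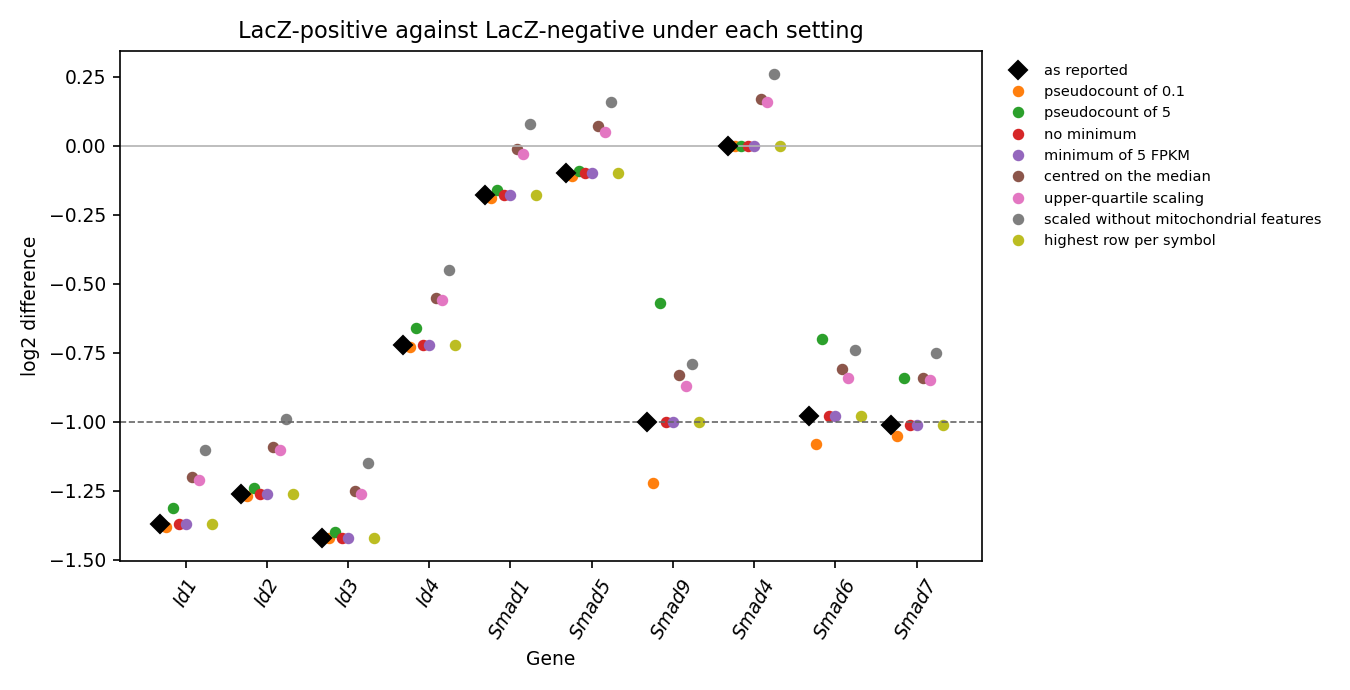
The log2 difference of LacZ-positive against LacZ-negative cells for each member as reported (black diamonds) and under 8 other settings (coloured circles); the dashed line marks 2-fold. Id1 and Id3 stay below the line under every setting, Id2 stops just short of it (-0.99) when libraries are scaled without mitochondrial features, and Smad6, Smad7 and Smad9 lie on either side of it depending on the setting.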

How the data were processed

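Groups were taken from the labels, 1 library each. Per the labels' protocols, RNA of sorted cells was made into libraries with Illumina's mRNA kit. The authors deposited FPKM in 2 gene tables, 1 per pair, per the file headers; the first also holds a log2 fold change of cKO over Het deposited by the authors, equal to the log2 ratio of the FPKM within 0.01 for all 10 members. Cufflinks 2.1.1, TopHat and TopHat2 2.0.4, and both mm9 and GRCm38, appear in the submitters' processing notes, with no role given. Coordinates were taken as mm9 because chromosome 7 reaches 152509964 in the tables, past the last GRCm38 gene end (145324059). FPKM keep no counts, so no interval was computed, and a few abundant features can shift all values: the mitochondrial transfer RNA mt-Ts1 held 20.6% to 28.1% of a library's summed FPKM.

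With Python 3.11.15 and pandas 2.3.3, rows of a symbol were summed (32091 rows; 25 symbols turned into dates were restored), and log2 of FPKM + 1 was compared where at least 1 library of the pair reached 1 FPKM. The steps were tested on simulated data. Genes to be named were the members, list genes past the 2-fold line in either pair, the most abundant of each list, and the 5 genes nearest to Id1, Id2 and Id3; of these the text gives examples, and further values were added after they were seen. The members and lists were chosen with earlier results of these data known. Results were recomputed under 8 other settings: centring, a pseudocount of 0.1 or of 5, a minimum of 5 FPKM or none, upper-quartile scaling, scaling without mitochondrial features and the highest row per symbol. The share of all genes without small RNA names and zeros was added after seeing the data.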

Additional observations from a re-analysis of the deposited data

How the results depend on the processing

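In the LacZ pair the count of members lower by 2-fold or more was 5, and 6 with a pseudocount of 0.1, where Smad6 joined at -1.08. It was 3 with a pseudocount of 5, with centring and with upper-quartile scaling (Id1, Id2 and Id3), and 2 with scaling without mitochondrial features (Id1 and Id3, with Id2 at -0.99). Under that scaling the median was -1.05 for the Id genes (-1.32 as reported) and -0.33 for the Smad genes (-0.58 as reported); with a pseudocount of 5 the Smad median was -0.36. Id1, Id2, Id3, Id4, Smad6, Smad7 and Smad9 kept their direction under all 8 alternatives. Smad1 and Smad5 turned to 0.08 and 0.16 under the scaling without mitochondrial features. Smad5 also turned to 0.07 with centring and to 0.05 with upper-quartile scaling. In the Ctnnb1 pair no member passed the line under any of the 8 alternatives, and Id3 changed sign under 3 (lowest -0.04). Of 160 values of single members, 143 kept sign and side of the line. That count includes settings that could not alter a member's value: no minimum, a minimum of 5 FPKM and the highest row per symbol. Each member has 1 row per table and reached 5 FPKM in at least 1 library of each pair. No paired analysis was possible because each group is 1 library and the labels give no replicate numbers. With 1 library per group no replicate could be left out, and low genes such as Smad9 and Smad6 depend most on the pseudocount.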
